A study of Homo sapiens with 9 samples.

Results

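The 28 genes described here carry out and control cholesterol synthesis, uptake and transport. They were taken from the deposited count table by gene symbol, and 28 of the 60683 genes listed had these symbols. All 28 were among the 22672 genes whose counts summed to at least 10 over the libraries and which were tested. By role, 8 encode enzymes from acetyl-CoA to the isoprenoids, 3 encode the enzymes that make and cyclise squalene, and 8 encode enzymes after lanosterol. A further 4 encode SREBP2 and its regulators, and 5 encode proteins of cholesterol transport, lipoprotein uptake and receptor turnover.

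RNA was sequenced from Hep3B, an established human liver cancer cell line. Cells in 6-well plates received vehicle (DMSO) at 20% O2, vehicle (DMSO) at 1% O2 or 32-134D at 1% O2, each for 24 hours, with 3 biological replicates in each group. The compound 32-134D was made as an inhibitor of the hypoxia-inducible factors (HIFs), the transcription factors that accumulate when oxygen is scarce. By the sample labels, all groups were grown in DMEM/F12 medium with serum, which also carries lipoprotein cholesterol. The study's methods instead name high-glucose DMEM with serum for Hep3B cells. No group received 32-134D at 20% O2. The labels state no dose of 32-134D. In bulk RNA, fewer cells of a type and less RNA per cell cannot be told apart, and the p-values measure the spread between these wells.

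Cholesterol is built from acetyl-CoA through mevalonate, the isoprenoids, squalene and lanosterol, and cells can also take it up with lipoproteins. When membrane cholesterol is low, SCAP carries the transcription factor SREBP2 from the endoplasmic reticulum to the Golgi, where it is cut and released to switch on most genes of the pathway. When sterols are plentiful, INSIG1 and INSIG2 hold SCAP in the endoplasmic reticulum. Several steps after squalene consume molecular oxygen, and the liver is a main site of this synthesis.

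Total counts per library ran from 6013980 to 40549699, the smallest being replicate 2 of vehicle at 20% O2. All 10 hepatocyte markers examined were detected, with a summed level of 18700 to 20100 CPM (read counts scaled to library size, with TMM factors) in vehicle at 20% O2, 13700 to 17100 in vehicle at 1% O2 and 11900 to 18500 with 32-134D, where replicate 3 was lowest for 9 of the 10. Among them APOB averaged 4487, 406 and 3520 CPM in the 3 groups, while ALB averaged 9284, 9536 and 8116. In hypoxia the log2 fold change was -3.47 for APOB and -0.69 for AFP. The rest of the list lay between -0.23 for APOH and 0.49 for FGB. Of the marker lists for other cell types, the leukocyte list summed to at most 3.80 CPM with CD3E at 0, and the endothelial list to at most 1.28 CPM with VWF at 0. The stromal list ran from 32.9 to 37.5, 13.3 to 14.8 and 28.9 to 30.5 CPM in the 3 groups. Over the libraries PDGFRB had 4306 counts, COL1A1 1245, COL1A2 188 and DCN 4. In hypoxia the log2 fold change was -1.44 for PDGFRB, -0.85 for COL1A1 and -1.68 for COL1A2. With 32-134D these genes stood at 1.13, 0.94 and 1.28. The part of the stromal list in the results was not tested. Among genes known to respond to HIFs, CA9 rose by 4.38 (log2 fold change) in hypoxia and fell by 3.36 with 32-134D. Replicate 3 of 32-134D stood apart from replicates 1 and 2 for many of the cholesterol genes, as it did for the hepatocyte markers, so differences with 32-134D are also given without it.

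In hypoxia, cholesterol genes were called in both directions, in shares somewhat above those of all genes, a difference that was not tested. Here a gene was called higher or lower with an FDR below 0.05 and a fold change above 1.5 in the edgeR quasi-likelihood fit of all genes. At 1% O2, 8 of the 28 genes were higher and 7 were lower than at 20% O2, while 13 were not called. Over all genes tested, 19.5% were higher and 20.3% were lower. The median log2 fold change was -0.10 for the cholesterol genes and 0.0010 for all genes. Lanosterol synthase and early mevalonate enzymes fell, whereas 3 of the 4 enzymes that use oxygen as a substrate rose together with both INSIG genes, VLDLR and MYLIP. Of the 15 enzymes that do not use oxygen, 1 rose and 5 fell. With 32-134D at 1% O2, 3 of the 28 genes were higher and 8 were lower than in vehicle at 1% O2, beside 16.2% and 13.7% of all genes, with a median of -0.05 against -0.01 for all genes. The share called lower was thus above that of all genes and the share called higher below it, which was not tested either. These comparisons share the libraries of vehicle at 1% O2, so their values are given side by side and not as independent evidence.

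**Figure D1:**
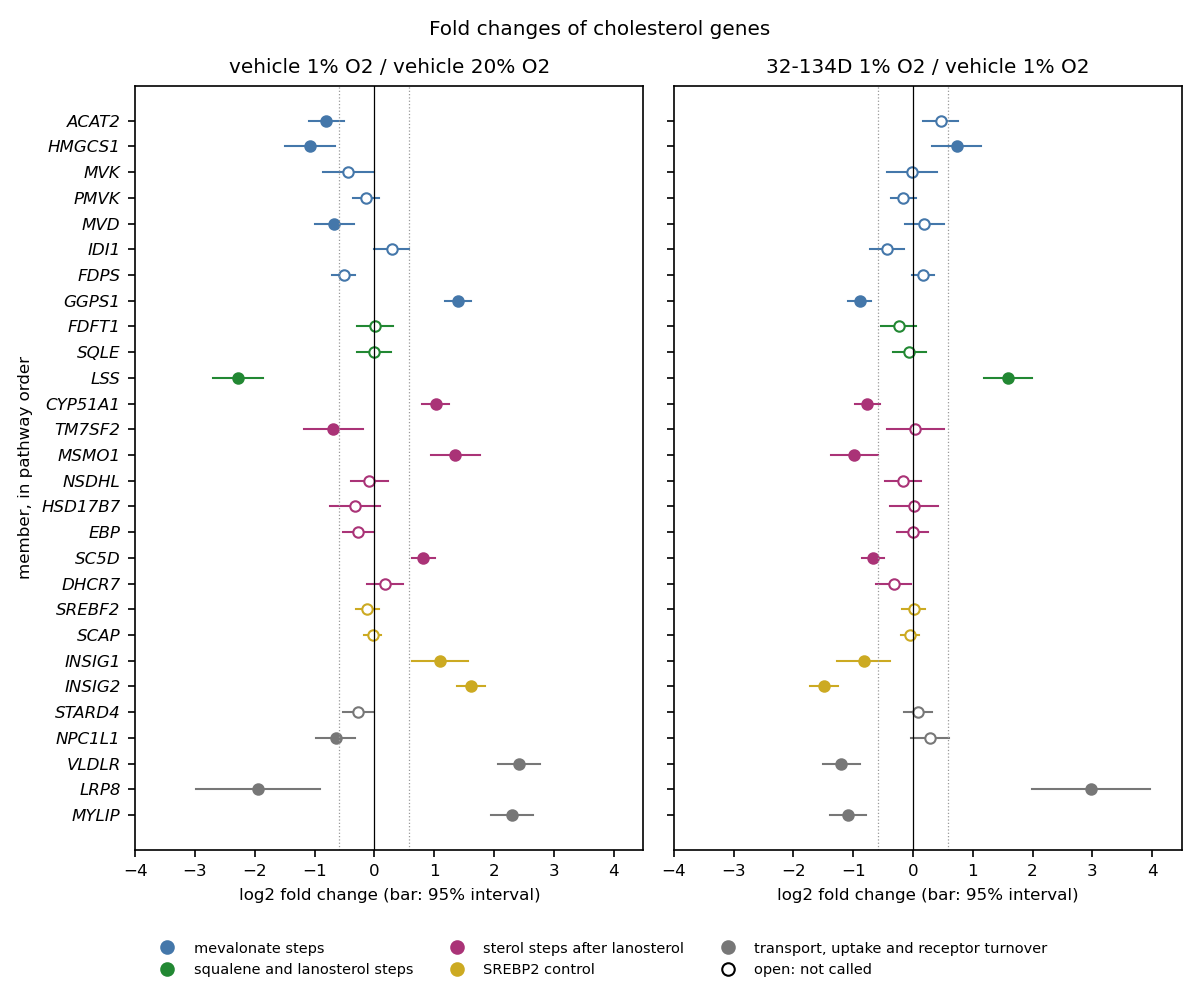
Log2 fold change of the 28 cholesterol genes in pathway order, vehicle at 1% O2 against vehicle at 20% O2 (left) and 32-134D against vehicle at 1% O2 (right); points are edgeR estimates, bars are 95% intervals, filled points are called, and dotted lines mark a fold change of 1.5. LSS lies at -2.28 and 1.59, VLDLR at 2.42 and -1.20, and SREBF2 at -0.12 and 0.02.

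The first enzymes of the pathway were lower in hypoxia. HMGCS1, the synthase that joins acetyl-CoA to acetoacetyl-CoA, stood at 176, 176 and 189.5 CPM in replicates 1 to 3 of vehicle at 20% O2, at 80.5, 88.3 and 87.5 in vehicle at 1% O2 and at 170.5, 173 and 82.4 with 32-134D. The vehicle groups did not overlap, and with 32-134D replicates 1 and 2 sat just below the 20% O2 libraries while replicate 3 sat within the 1% O2 range. HMGCS1 was 2.11-fold lower in hypoxia (log2 fold change -1.08, SE 0.19, FDR = 2.33e-04) and 1.67-fold higher with 32-134D than without it (0.74, SE 0.19, FDR = 0.00520). Without replicate 3 the increase with 32-134D was 1.01 on the log2 scale, and without replicate 2 it was 0.57 and was not called. ACAT2, the thiolase of the preceding step, had 165, 143 and 146 CPM at 20% O2, 78.0, 90.6 and 91.9 at 1% O2, and 138, 132 and 87.9 with 32-134D. It fell by 0.80 in hypoxia (SE 0.14, FDR = 1.30e-04). Its difference with 32-134D, 0.46 (SE 0.13, FDR = 0.0105), lay under the fold threshold, and without replicate 3 it passed at 0.64.

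MVD, the decarboxylase that makes isopentenyl diphosphate, had 81.5, 74.3 and 75.9 CPM at 20% O2 and 41.0, 52.4 and 52.6 CPM at 1% O2. The groups did not overlap, and the level fell by 0.67 (SE 0.15, FDR = 0.00175), or by 0.56, not called, when replicate 1 of vehicle at 1% O2 was left out. With 32-134D its 3 libraries had 63.0, 63.7 and 38.9 CPM, from above to below the hypoxic range, and the difference of 0.19 was not called (95% interval -0.13 to 0.51). Without replicate 3 it was 0.39 (FDR = 5.34e-04), under the fold threshold. FDPS, farnesyl diphosphate synthase, had 277, 272 and 259 CPM at 20% O2, 173, 198 and 196 at 1% O2 and 229, 224 and 183 with 32-134D. Its difference in hypoxia, -0.51 (SE 0.09, FDR = 1.69e-04), passed the FDR but not the fold threshold. MVK and PMVK, the kinases that phosphorylate mevalonate and its phosphate, were not called, at -0.44 (95% interval -0.87 to -0.01) and -0.14 (-0.36 to 0.08) in hypoxia. With 32-134D they stood at -0.02 (-0.44 to 0.40) and -0.16 (-0.37 to 0.05). IDI1, the isomerase of isopentenyl diphosphate, was at 0.29 in hypoxia. With 32-134D it was at -0.44 (FDR = 0.0137), and at -0.26 without replicate 3 (FDR = 0.0072), both under the fold threshold. Without that replicate the differences with 32-134D were 0.26 for FDPS (FDR = 0.00292), 0.25 for MVK (FDR = 0.0289) and -0.13 for PMVK. None of them was called, those of FDPS and MVK passing the FDR but not the fold threshold.

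GGPS1, which makes geranylgeranyl diphosphate on a branch that does not lead to sterols, moved the other way. It had 18.9, 15.5 and 15.8 CPM at 20% O2, 44.0, 44.7 and 44.1 CPM at 1% O2 and 22.2, 25.8 and 23.7 CPM with 32-134D. The 3 groups did not overlap, and the 32-134D libraries sat near the 20% O2 libraries. GGPS1 was 2.64-fold higher in hypoxia (log2 1.40, SE 0.10, FDR = 1.81e-08) and fell by 0.89 with 32-134D (SE 0.09, FDR = 1.82e-06), also by 0.89 without replicate 3. Its exons share 1422 nucleotides, 37.3% of their length, with TBCE on the same strand, and 138 nucleotides with ARID4B on the opposite strand. TBCE had 1111 counts over the libraries against 6832 for GGPS1, so the reads of the shared stretch could have been split or left out. ACAT2 likewise shares 397 nucleotides with TCP1 on the opposite strand, a gene with 111642 counts against 26242 for ACAT2, and the strand setting of the counting is not given in the sources used here. On that strand ACAT2 also shares 1458 nucleotides with SOD2-OT1 and 1141 with SOD2, which had 56 and 20 counts.

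Lanosterol synthase showed the largest decrease of the 28 genes in hypoxia. LSS, which folds oxidised squalene into lanosterol, the first sterol, had 141, 157 and 155 CPM at 20% O2, 31.4, 31.2 and 30.7 CPM at 1% O2, and 115, 110.2 and 55.7 CPM with 32-134D. The hypoxic libraries differed by less than 1 CPM from each other, and every 32-134D library lay between the vehicle groups. LSS was 4.86-fold lower in hypoxia (log2 -2.28, SE 0.19, FDR = 1.36e-07) and 3.01-fold higher with 32-134D than in vehicle at 1% O2 (log2 1.59, SE 0.19, FDR = 7.35e-06), or 3.62-fold without replicate 3. The enzymes of the preceding steps were not called. FDFT1, squalene synthase, had 93.7, 98.1 and 92.8 CPM at 20% O2 and 85.5, 101 and 99.1 CPM at 1% O2, a log2 difference of 0.01 (95% interval -0.29 to 0.30). SQLE, the epoxidase that adds oxygen to squalene, had 57.8, 56.4 and 64.2 CPM at 20% O2, 55.6, 62.8 and 59.6 at 1% O2 and 65.6, 63.1 and 41.8 with 32-134D. Its groups overlapped, and it was the only 1 of the 4 oxygen-using enzymes not called in hypoxia, at -0.01 (-0.30 to 0.28), or with 32-134D, at -0.06 (-0.34 to 0.22). Without replicate 3 of 32-134D, SQLE stood at 0.12 and FDFT1 at -0.05 with 32-134D.

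Because LSS changed most among the enzymes, the sequence upstream of it is shown, from the RefSeq promoter table on GRCh38.p14, which held windows from 250 bases before to 50 bases after the start of 25 of the 28 genes. The stretch ends before the annotated transcript, at chr21:46228825-46229024 on the minus strand, and capitals mark its 3 matches to the core of a hypoxia response element, ACGTG or GCGTG on either strand, the letters at which HIFs can bind.
LSS: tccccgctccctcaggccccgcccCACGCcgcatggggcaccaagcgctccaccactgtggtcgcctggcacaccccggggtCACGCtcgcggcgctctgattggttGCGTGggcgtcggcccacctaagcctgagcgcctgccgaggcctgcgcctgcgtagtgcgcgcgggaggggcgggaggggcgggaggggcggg
A match to these letters is a description of the sequence and not a site shown to be bound.

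Of the 8 enzymes after lanosterol, 3 that use oxygen were called higher in hypoxia, 1 was called lower and 4 were not called. CYP51A1, the demethylase that acts on lanosterol, had 14.6, 15.4 and 15.8 CPM at 20% O2, 28.3, 32.9 and 32.1 at 1% O2 and 19.6, 19.2 and 16.1 with 32-134D. MSMO1, the methyl sterol oxidase, had 30.1, 27.3 and 25.6 CPM at 20% O2, 48.3, 80.9 and 83.4 at 1% O2 and 38.3, 41.8 and 26.98 with 32-134D. SC5D, the desaturase near the end of the pathway, had 41.4, 38.2 and 38.3 CPM at 20% O2, 66.2, 73.9 and 68.2 at 1% O2 and 46.5, 45.7 and 39.1 with 32-134D. In these 3 oxygen-using enzymes every hypoxic library was above every library of both other groups, although replicate 1 of vehicle at 1% O2 was well below replicates 2 and 3 for MSMO1. CYP51A1 rose by 1.02 in hypoxia (log2, SE 0.11, FDR = 1.04e-06) and fell by 0.76 with 32-134D (SE 0.10, FDR = 1.88e-05). MSMO1 rose by 1.36 (SE 0.19, FDR = 2.52e-05) and fell by 0.98 (SE 0.18, FDR = 4.20e-04). SC5D rose by 0.82 (SE 0.09, FDR = 1.41e-06) and fell by 0.66 (SE 0.08, FDR = 1.39e-05). Without replicate 3 of 32-134D the log2 differences with 32-134D were -0.68 for CYP51A1, -0.82 for MSMO1 and -0.59 for SC5D, all called. The exons of CYP51A1 share 2844 nucleotides, 79.4% of their length, with AC000120.2 on the same strand. AC000120.2 had 0 counts over the libraries, so reads of the shared stretch could have been left out of the CYP51A1 values.

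TM7SF2, a sterol reductase that needs no oxygen, had 138, 131 and 143 CPM at 20% O2, 76.9, 91.7 and 88.4 at 1% O2 and 111, 108 and 44.8 with 32-134D. The vehicle groups did not overlap, and the 32-134D libraries spread from between the vehicle groups to far below both. TM7SF2 fell by 0.69 in hypoxia (SE 0.23, FDR = 0.0195), a call lost without replicate 3 of vehicle at 20% O2, without replicate 1 of vehicle at 1% O2, and with DESeq2. Over the libraries left out in turn its log2 fold change ran from -0.74 to -0.61. Its difference with 32-134D was 0.04 (95% interval -0.44 to 0.52), or 0.36 without replicate 3 (FDR = 2.74e-04), under the fold threshold. The remaining 4 enzymes were not called in either comparison. They are NSDHL and HSD17B7, which remove the methyl groups of the sterol ring together with MSMO1, EBP, an isomerase, and DHCR7, the reductase whose substrate is also the precursor of vitamin D. Their differences in hypoxia ran from -0.33 for HSD17B7 to 0.18 for DHCR7, and with 32-134D from -0.32 for DHCR7 to 0.02 for HSD17B7. Without replicate 3 of 32-134D they stood at -0.15 for DHCR7, 0.01 for NSDHL, 0.11 for EBP and 0.25 for HSD17B7, none called. Counts on pseudogene copies of HSD17B7, identified by their gene symbols, came to 16.0% of its own, so part of its reads may have been placed elsewhere.

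**Figure D2:**
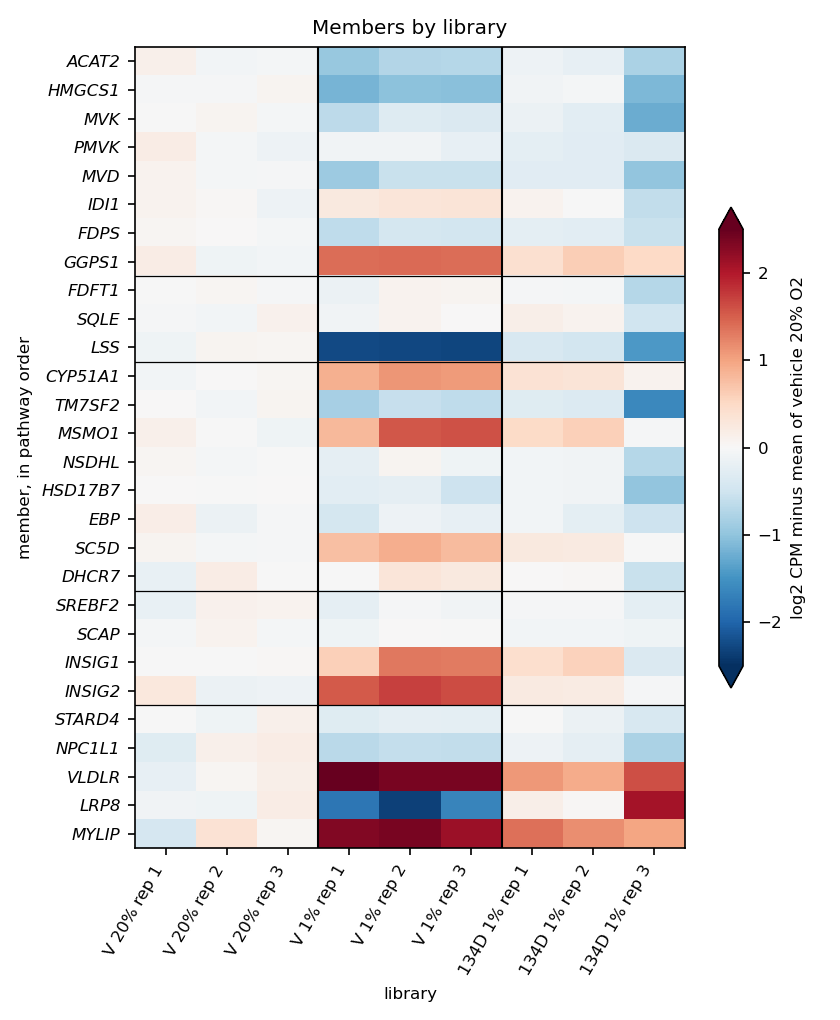
Log2 CPM of each cholesterol gene in each library minus its mean in vehicle at 20% O2, with genes in pathway order from top to bottom and the 9 libraries from left to right; red is higher, blue is lower and the colour scale stops at 2.5 on either side. LSS and LRP8 are dark blue and VLDLR and MYLIP dark red in vehicle at 1% O2, and replicate 3 of 32-134D is bluer than replicates 1 and 2 in the enzymes.

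The genes of the SREBP2 machinery were separated into the transcription factor and its escort, which were not called, and the retention proteins, which rose. SREBF2, which encodes SREBP2, had 167, 204 and 202 CPM at 20% O2, 163, 186 and 178 at 1% O2 and 185, 187 and 161 with 32-134D. Its groups overlapped, with differences of -0.12 in hypoxia (95% interval -0.31 to 0.08) and 0.02 with 32-134D (-0.18 to 0.21). SCAP ranged from 111 to 127 CPM over the 9 libraries, with differences of -0.03 (-0.18 to 0.12) and -0.05 (-0.19 to 0.10). Without replicate 3 of 32-134D, SREBF2 stood at 0.08 and SCAP at -0.04 with 32-134D. INSIG2, by contrast, had 53.6, 40.2 and 41.0 CPM at 20% O2, 129, 146 and 138 CPM at 1% O2 and 52.0, 51.5 and 43.4 CPM with 32-134D. Every hypoxic library was above every library of the other groups, and the 32-134D and 20% O2 libraries overlapped. INSIG2 rose by 1.61 in hypoxia (SE 0.11, FDR = 1.37e-08) and fell by 1.49 with 32-134D (SE 0.11, FDR = 6.32e-08), or by 1.41 without replicate 3. INSIG1, itself a known target of SREBP2, had 22.7, 22.8 and 23.5 CPM at 20% O2, 34.6, 57.3 and 56.3 at 1% O2 and 30.8, 34.5 and 17.8 with 32-134D. The vehicle groups did not overlap, and in both groups at 1% O2 a library lay far from the others of its group. INSIG1 rose by 1.10 (SE 0.22, FDR = 5.23e-04) and fell by 0.82 with 32-134D (SE 0.21, FDR = 0.00403), or by 0.59 without replicate 3 of 32-134D, which was still called.

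The sequences upstream of both INSIG genes and of SREBF2 are shown because the INSIG genes moved while SREBF2 was not called. In the first 2, at chr7:155297628-155297775 and chr2:118088300-118088451 on the plus strand of GRCh38.p14, capitals mark 3 and 2 matches to the hypoxia response core. In SREBF2, at chr22:41832855-41833078 on the plus strand, capitals mark the match to a sterol regulatory element, TCACNCCAC, the kind of letters SREBPs bind.
INSIG1: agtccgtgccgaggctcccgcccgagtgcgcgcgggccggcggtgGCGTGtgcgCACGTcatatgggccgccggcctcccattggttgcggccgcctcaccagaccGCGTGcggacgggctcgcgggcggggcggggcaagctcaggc
INSIG2: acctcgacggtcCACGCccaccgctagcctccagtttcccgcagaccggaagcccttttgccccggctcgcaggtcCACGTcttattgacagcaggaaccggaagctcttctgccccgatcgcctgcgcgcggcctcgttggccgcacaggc
SREBF2: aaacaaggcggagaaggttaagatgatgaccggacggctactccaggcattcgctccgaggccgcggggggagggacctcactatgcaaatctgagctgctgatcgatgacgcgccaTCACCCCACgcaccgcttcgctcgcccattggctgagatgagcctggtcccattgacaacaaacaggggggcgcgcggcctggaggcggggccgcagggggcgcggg
Of the 25 promoter windows matched, SREBF2 alone held TCACNCCAC, that is 4% against 1.13% of the 35116 windows in the table. Only these exact letters were searched, so a window without them can still hold a sterol element that differs from them. The hypoxia response core was held by 21 of the 25 windows, 84% against 48.4% of all windows, and ACGTG inside the palindrome CACGTG was counted on each strand. Of the genes with a window, 6 of 8 that were higher in hypoxia held this core, as did 5 of 6 that were lower and 10 of 11 that were not called. The NF-Y box CCAAT, which often accompanies sterol elements, was held by 16 of the 25 windows, 64% against 34.6% of all windows, and by 4 of 8, 4 of 6 and 8 of 11 of the same sets.

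**Figure D3:**
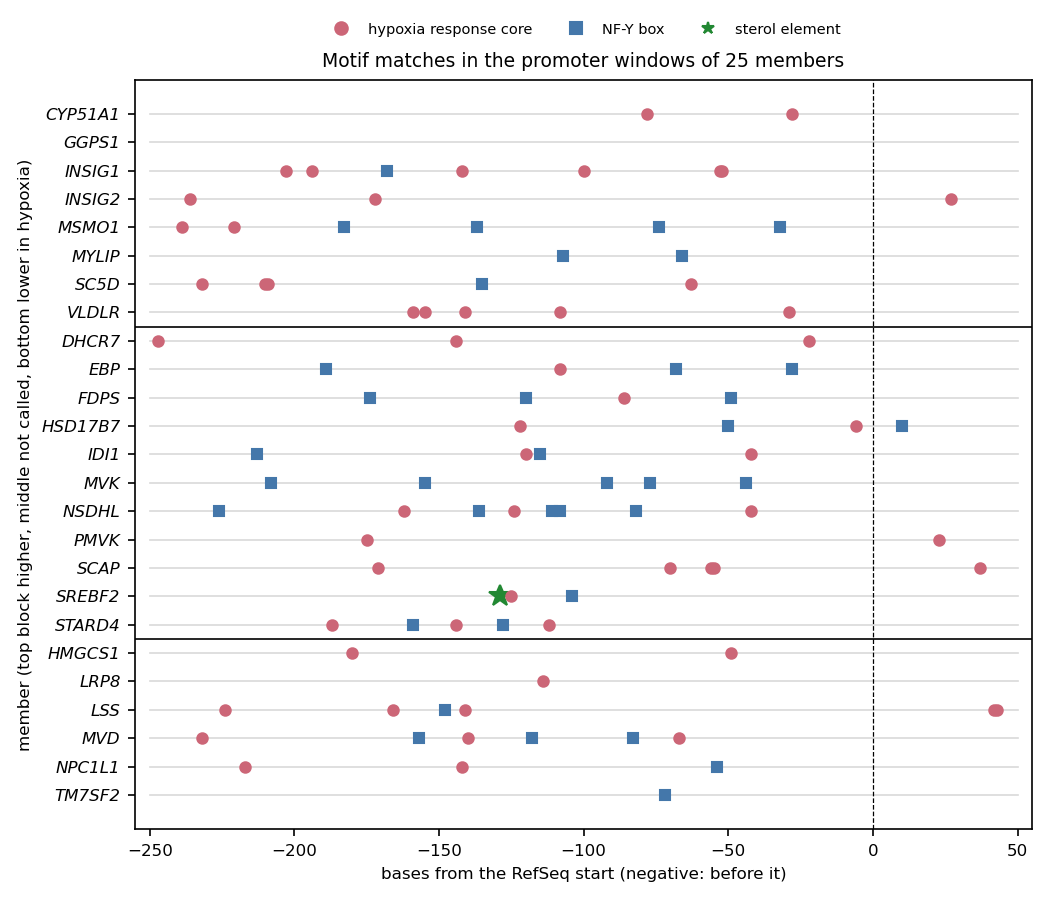
Matches to 3 motifs, on either strand, in the promoter windows of 25 cholesterol genes; the horizontal axis gives bases from the RefSeq start, and genes are grouped from top to bottom as higher (8), not called (11) and lower (6) in hypoxia. Hypoxia response cores (circles) and NF-Y boxes (squares) occur in all 3 blocks, and the single match to TCACNCCAC (star) is in SREBF2. Sterol elements with other letters were not searched.

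The genes of uptake and receptor turnover held the largest increases. VLDLR, a receptor for triglyceride-rich lipoproteins and a known HIF target, had 6.67, 8.01 and 8.61 CPM at 20% O2, 45.1, 40.2 and 40.2 at 1% O2 and 16.5, 14.8 and 23.8 with 32-134D. The 3 groups did not overlap, and the 32-134D libraries lay between the vehicle groups. VLDLR was 5.35-fold higher in hypoxia (log2 2.42, SE 0.17, FDR = 1.40e-08) and fell by 1.20 with 32-134D (SE 0.15, FDR = 9.31e-06), or by 1.42 without replicate 3. MYLIP, a ubiquitin ligase that sends lipoprotein receptors for degradation, had 3.94, 6.91 and 5.54 CPM at 20% O2, 26.8, 28.1 and 23.6 at 1% O2 and 14.0, 12.1 and 10.6 with 32-134D. Its groups did not overlap either. MYLIP was 4.93-fold higher in hypoxia (log2 2.30, SE 0.17, FDR = 2.22e-08) and fell by 1.09 with 32-134D (SE 0.14, FDR = 1.79e-05), or by 1.00 without replicate 3. The window upstream of VLDLR, chr9:2621537-2621786 on the plus strand of GRCh38.p14, is shown for its 5 matches to the hypoxia response core, in capitals, of which 2 share a base. None was found in the window of MYLIP.
VLDLR: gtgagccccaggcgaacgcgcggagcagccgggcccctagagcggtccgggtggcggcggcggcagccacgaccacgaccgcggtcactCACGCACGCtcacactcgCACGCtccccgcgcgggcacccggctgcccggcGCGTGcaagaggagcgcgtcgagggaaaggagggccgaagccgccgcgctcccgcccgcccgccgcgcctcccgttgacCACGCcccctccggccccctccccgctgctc

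LRP8, a receptor related to VLDLR that binds apolipoprotein E and reelin, moved in the opposite direction. It had 7.39, 7.38 and 9.06 CPM at 20% O2, 2.20, 1.51 and 2.45 at 1% O2 and 8.76, 8.05 and 33.6 with 32-134D. The vehicle groups did not overlap, and replicate 3 of 32-134D was far above all other libraries. These levels rest on 103, 47 and 298 counts, 83, 32 and 71 counts, and 309, 239 and 734 counts. LRP8 was 3.87-fold lower in hypoxia (log2 -1.95, SE 0.49, FDR = 0.00319) and 7.90-fold higher with 32-134D (log2 2.98, SE 0.46, FDR = 8.13e-05). Without replicate 3 the increase was 4.0-fold, and the 32-134D level then lay within the range at 20% O2. NPC1L1, the transporter that takes up free cholesterol at the cell surface, had 50.0, 67.2 and 70.6 CPM at 20% O2, 39.0, 40.9 and 40.3 at 1% O2 and 57.0, 53.1 and 35.6 with 32-134D. It fell by 0.65 in hypoxia (SE 0.15, FDR = 0.00231), or by 0.54, not called, without replicate 3 of vehicle at 20% O2. With 32-134D its difference was 0.28 (95% interval -0.04 to 0.61), and without replicate 3 it was 0.46 (FDR = 1.96e-04), under the fold threshold. STARD4, a carrier of sterols between membranes, was not called, at -0.27 (-0.52 to -0.03) in hypoxia and 0.08 (-0.15 to 0.32) with 32-134D, or 0.18 without replicate 3.

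**Figure D4:**
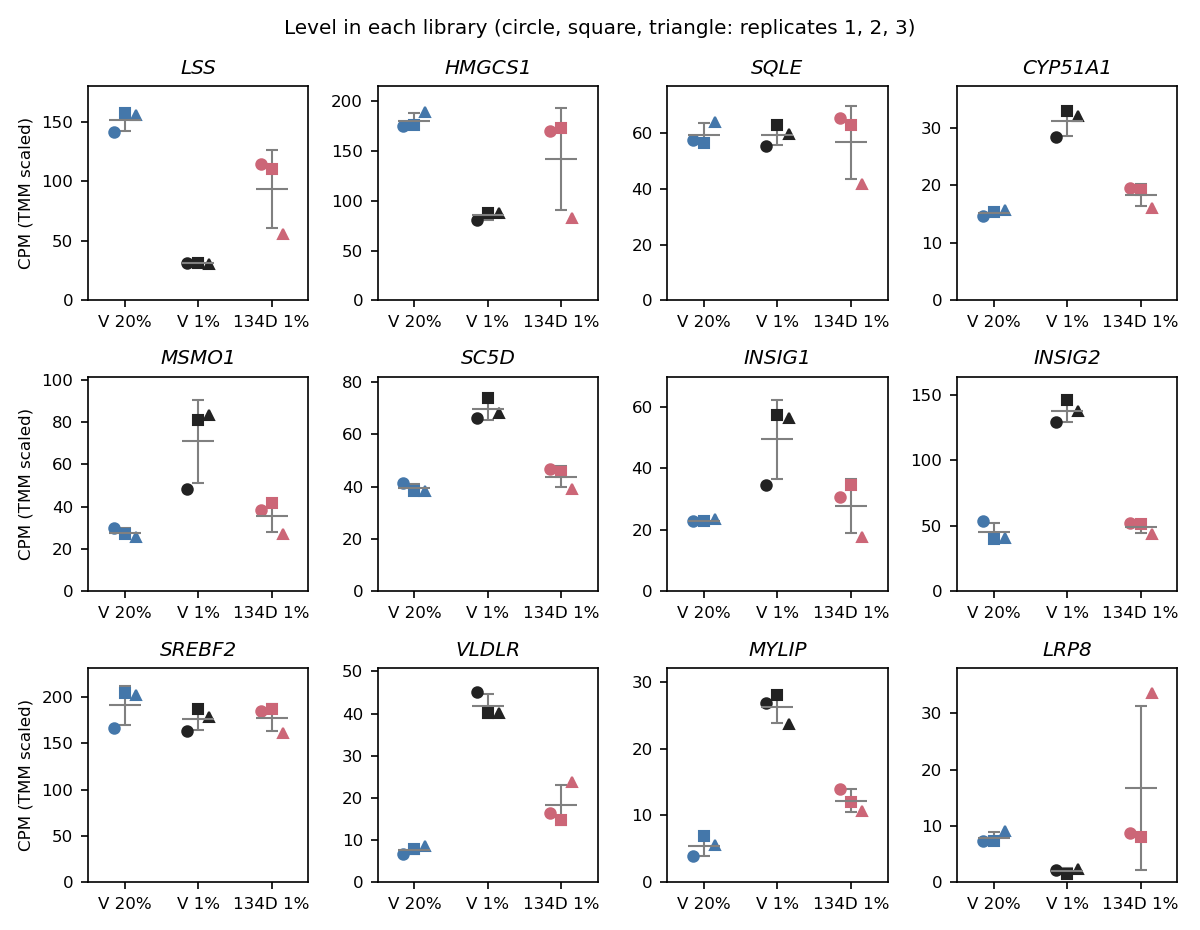
Levels of 12 cholesterol genes in each library, in CPM scaled with TMM; circles, squares and triangles are replicates 1 to 3 of vehicle at 20% O2 (V 20%), vehicle at 1% O2 (V 1%) and 32-134D at 1% O2 (134D 1%), and grey bars are the mean and SD of 3 replicates. LSS falls from 151 ± 8.92 to 31.1 ± 0.374 CPM in hypoxia, INSIG2 rises from 44.9 ± 7.50 to 138 ± 8.29, and replicate 3 of 32-134D is low for HMGCS1 and high for LRP8.

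Divided by exon length, so that genes can be compared with each other, FDPS was the most abundant of the 28 in all groups, at 72.5 ± 2.47 CPM per kilobase at 20% O2, 50.8 ± 3.71 at 1% O2 and 57.0 ± 6.78 with 32-134D (SD, n = 3). At 20% O2 it was followed by TM7SF2 at 40.3 ± 1.78, HMGCS1 at 38.3 ± 1.70 and ACAT2 at 35.2 ± 2.79, and neighbours among these did not differ beyond their spread. The order changed in hypoxia. INSIG2, at 34.8 ± 2.10 CPM per kilobase, and DHCR7, at 33.1 ± 3.64, came next after FDPS and did not differ beyond their spread, and MSMO1 stood at 24.5 ± 6.78. LSS went from 20.9 ± 1.23 to 4.30 ± 0.0517 CPM per kilobase, and to 12.9 ± 4.53 with 32-134D. VLDLR went from 0.831 ± 0.106 to 4.48 ± 0.302 CPM per kilobase and LRP8 from 0.774 ± 0.0945 to 0.200 ± 0.0477, so that receptors of similar level at 20% O2 stood far apart at 1% O2.

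Within the 32-134D group, replicate 3 differed from replicates 1 and 2 in the pathway and in hepatocyte markers. All 19 enzymes were lower in it than in the mean of replicates 1 and 2, and 18 of them were lowest of the group. Of the 22672 genes tested, 11987 were lower in it and 9717 were lowest of the group. The median log2 difference from replicates 1 and 2 was -0.62 over the enzymes and -0.02 over all genes tested. Of the 10 hepatocyte markers, 9 were also lowest in replicate 3, with a median difference of -1.01 over the 10. Transferrin (TF), for instance, had 1545, 1505 and 584 CPM in replicates 1 to 3, TTR 37.9, 34.5 and 9.79 and AFP 204, 194 and 86.0, while HNF4A had 349, 353 and 379.9. Their part in the enzyme values was not tested. TM7SF2 stood at 41.0% of the mean of replicates 1 and 2, HMGCS1 at 47.9%, MVK at 48.8% and LSS at 49.6%, while GGPS1 stood at 99.1% and PMVK at 93.2%. Among the regulators, INSIG1 stood at 54.6% and SCAP at 97.7%. The genes above replicates 1 and 2 were LRP8, 3.99 times their mean, and VLDLR, 1.52 times. In the vehicle group at 1% O2, replicate 1 was lowest for 16 of the 19 enzymes, with a median log2 difference of -0.20 against 0.02 for all genes, and for 8 of the 10 hepatocyte markers, with a median of -0.25. Over all genes tested it was lowest for 7227 of 22672. In vehicle at 20% O2 the medians lay between -0.05 and 0.06. These library differences have no replicate of their own and were not tested. Without replicate 3 the comparison of 32-134D with vehicle at 1% O2 called 4 of the 28 genes higher, ACAT2 being added, and 8 lower.

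**Figure D5:**
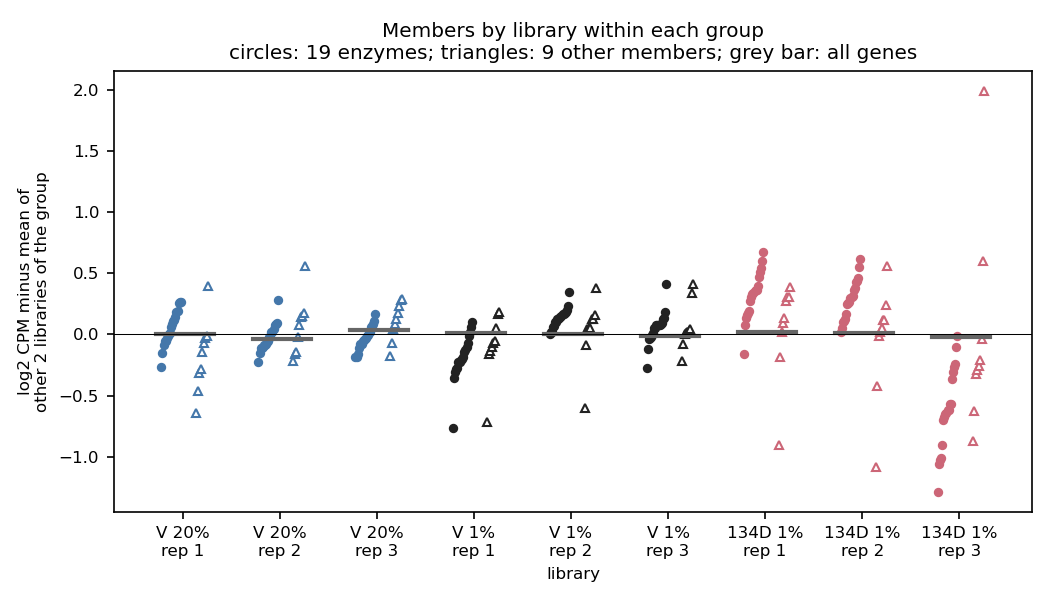
Log2 CPM of each cholesterol gene in a library minus its mean in the other 2 libraries of the group, by library; filled circles are the 19 enzymes, open triangles the other 9 genes, horizontal offsets within a library carry no value, and grey bars are the median of all genes tested. In replicate 3 of 32-134D all 19 enzymes lie below 0, with a median of -0.62, and the highest triangle is LRP8.

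Against vehicle at 20% O2, VLDLR and MYLIP were called higher and LSS lower after 32-134D at 1% O2. In this comparison, 2 of the 28 genes were higher and 1 was lower, beside 3.0% and 0.516% of all genes tested, and the median log2 fold change was -0.17 against -0.0028 for all genes. VLDLR was 2.33-fold higher than at 20% O2 (log2 1.22, SE 0.17, FDR = 2.75e-04) and MYLIP 2.32-fold higher (log2 1.21, SE 0.17, FDR = 2.90e-04), and without replicate 3 of 32-134D they stood at 0.99 and 1.31, both called. LSS was 1.61-fold lower (log2 -0.69, SE 0.18, FDR = 0.0278). Without replicate 3 of 32-134D it stood at -0.43 (FDR = 1.18e-04), which passed the FDR but not the fold threshold. The call was also lost without any 1 of the 3 libraries at 20% O2 (-0.73, -0.66 and -0.67 without replicates 1, 2 and 3), and in a fit of these groups alone (-0.69). In these last 4 fits the difference was close to -0.69 and the FDR ran from 0.0590 to 0.106. GGPS1, at 0.51 (FDR = 0.00437), and FDPS, at -0.35 (FDR = 0.0226), passed the FDR but not the fold threshold. LRP8 stood at 1.03 (95% interval 0.12 to 1.94), and at 0.04 without replicate 3. For the other genes the differences ran from -0.64 for TM7SF2 to 0.38 for MSMO1. Without replicate 3 these stood at -0.34 (FDR = 0.00381) and 0.54 (FDR = 0.0128), both under the fold threshold. An uncalled difference does not show that the level had returned to that at 20% O2.

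The scaling of the libraries bears on the size of these values. With counts divided by total library size in place of TMM, the median of all genes moved to -0.21 in hypoxia and to 0.17 with 32-134D, and the share of calls that were higher went from 48.98% to 34.5% and from 54.2% to 72.0%. Of the 22672 genes tested, 3081 were then higher and 5848 lower in hypoxia, and 4755 were higher and 1847 lower with 32-134D. Under this scaling 8 of the 28 genes were higher and 9 lower in hypoxia, where MVK (-0.65) and FDPS (-0.73) were added. With 32-134D 4 were higher and 6 lower, with ACAT2 (0.65) added, and CYP51A1 (-0.57) and SC5D (-0.48) no longer called. Relative to the shifted medians, the differences of all these genes were close to those with TMM.

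Other genes of cholesterol handling were listed by function, and 42 of the 46 had enough counts to be tested, CYP7A1, CYP8B1, CH25H and ABCG5 being too low. In hypoxia 9 of the 42 were higher and 9 lower (19.5% and 20.3% of all genes), and with 32-134D 7 were higher and 6 lower (16.2% and 13.7% of all genes), so these shares were near the background. SREBF1, which encodes the related factor SREBP1, had 177, 192 and 189.8 CPM at 20% O2, 65.2, 62.5 and 69.4 at 1% O2 and 147, 146 and 148 with 32-134D. It was called, with no overlap between groups, at -1.50 in hypoxia (FDR = 3.24e-10) and 1.16 with 32-134D (FDR = 1.04e-08). ABCA1, the exporter that loads cholesterol onto apolipoprotein A-I, stood at -2.02 and 1.88. LRP1, a large endocytic lipoprotein receptor, stood at -1.62 and 1.32, and CYP7B1, an oxysterol hydroxylase, at -1.73 and 1.67. NPC1, which moves cholesterol out of lysosomes, stood at 1.49 in hypoxia and -0.95 with 32-134D, and FNTA, a subunit of the enzymes that attach isoprenoids to proteins, at 1.27 and -0.89. RNF139, a ubiquitin ligase of the endoplasmic reticulum, stood at 1.73 and -0.83. It was also the 1 gene of the 42 called against vehicle at 20% O2, at 0.90 (FDR = 2.89e-05).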

How the data were processed

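The authors deposited 1 table of raw read counts per Ensembl gene. The steps before it were FastQC, trimming with Bbduk, mapping to GRCh38 with STAR and counting with featureCounts. The tool versions and the strand setting are not given in the sources used here. Columns were matched to samples by the sample titles, and 0 columns were left unmapped. No library duplicated another: over genes, chi-square divided by its degrees of freedom was at least 1.64 for each replicate pair and at most 40.5.

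From these counts, TMM-scaled CPM and log2 fold changes were computed with edgeR 4.0.16 in R 4.3.3, in 1 quasi-likelihood fit of the 9 libraries. The filter kept genes with a summed count of at least 10, and calls needed a fold change above 1.5 and an FDR (Benjamini-Hochberg, over all genes tested) below 0.05. The 3 groups were fitted with 1 dispersion per gene, at a common biological coefficient of variation of 10.5%. Intervals are 95% intervals of the fit, and CPM with a prior count of 2 was used for log2 CPM. The alternatives were DESeq2 1.42.0, other scalings, filters and fold thresholds, fits of 2 groups, the replicate number as a block, and the removal of each library in turn. The procedure was tested on simulated data. Same-numbered libraries of different groups showed no shared deviation, with correlations from -0.032 to 0.005, beside -0.017 to 0.037 for libraries of different numbers. These values cannot show whether the wells were paired by design. Positions, exon lengths and overlaps come from GENCODE on GRCh38, and promoter windows from RefSeq on GRCh38.p14, where ACAT2, FDFT1 and SQLE were not matched.

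All 28 cholesterol genes are named. Of the other listed genes, those with the largest fold among the called are named where the normalized count averaged at least 100 in the higher group, at most 8 per comparison, plus SREBF1. The values of 1 gene that this rule would name are not reported here. The members and the gene lists were chosen with earlier results of these data known, so no value is adjusted over a list alone.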

Additional observations from a re-analysis of the deposited data

How the results depend on the processing

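All alternatives listed were run. Over 1092 values for single genes, 1008 kept their direction and stayed called or not called. Of the rest, 57 changed sign, 14 lost a call and 13 gained one, and none of the 57 was a called value. A value that crossed the FDR threshold alone counts among the 1008, as for TM7SF2 with 32-134D without its replicate 3 (FDR = 2.74e-04). After the change the largest of the 57 was 0.25, for MVK with 32-134D without replicate 3 (FDR = 0.0289), under the fold threshold. With DESeq2, FDFT1 was at -0.041 in hypoxia, and with 32-134D MVK was at 0.028, EBP at 0.051 and SCAP at 0.0098. With median-ratio scaling in edgeR, they were at -0.0400, 0.037, 0.053 and 0.0093. With total library size, FDFT1 was at -0.21 and DHCR7 at -0.038 in hypoxia, and with 32-134D MVK was at 0.17, PMVK at 0.025, SQLE at 0.13, NSDHL at 0.018, EBP at 0.18 and SCAP at 0.14. With at least 10 counts in every library, FDFT1 was at -0.10 in hypoxia, and with 32-134D MVK was at 0.077, SQLE at 0.038, EBP at 0.091 and SCAP at 0.045. With no filter, SQLE was at 0.018 in hypoxia. In fits of 2 groups, with 32-134D, MVK was at 0.044, SQLE at 0.0065, EBP at 0.060 and SCAP at 0.016. The replicate block put TM7SF2 at -0.014 and HSD17B7 at -0.013 with 32-134D. With that block 8 genes were higher and 7 lower in hypoxia, 3 and 8 with 32-134D, and 2 and 1 against vehicle at 20% O2, as without it. The hypoxia median moved to -0.32 with total library size and to -0.21 with at least 10 counts in every library. With a fold threshold of 2, 3 genes were lower in hypoxia, 3 were lower with 32-134D and 0 were lower against vehicle at 20% O2, where 2 were lower without a fold threshold, 2 without a filter and 0 in the fit of 2 groups. Leaving out 1 library, that last count ran from 0 to 3. In hypoxia FDFT1 then ran from -0.056 to 0.080, SQLE from -0.089 to 0.048 and SCAP from -0.11 to 0.014. With 32-134D the ranges were -0.13 to 0.36 for TM7SF2, -0.036 to 0.0897 for SREBF2, -0.15 to 0.25 for MVK, -0.095 to 0.11 for EBP, -0.14 to 0.12 for SQLE, -0.11 to 0.25 for HSD17B7, -0.082 to 0.033 for SCAP and -0.26 to 0.012 for NSDHL. Against vehicle at 20% O2 they were -0.27 to 0.036 for IDI1, -0.18 to 0.10 for SQLE and -0.24 to 0.025 for DHCR7. The causes were not tested. LRP8, with 32 to 734 counts per library, is the gene most limited by depth.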
